A study of Mus musculus with 6 samples.

Results

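The miR-125 family and the miR-99/100 family were followed as 10 mature arms, chosen by name: mmu-miR-125a-5p, mmu-miR-125a-3p, mmu-miR-125b-5p, mmu-miR-125b-1-3p, mmu-miR-125b-2-3p, mmu-miR-99a-5p, mmu-miR-99a-3p, mmu-miR-99b-5p, mmu-miR-99b-3p and mmu-miR-100-5p. The prefix mmu stands for mouse and is mostly left out below. All 10 were among the 1081 mature miRNAs of the table, and all 10 were among the 461 that passed the filter on low values (a mean of at least 5 normalized reads over all libraries). They were measured by small RNA sequencing of the kidney inner medulla, the innermost zone, from 3 DicerAQP2Cre+ mice and 3 control mice, all 1 month old. DicerAQP2Cre+ mice lack Dicer1 in cells that express aquaporin-2, through which principal cells of the collecting duct take up water; the labels call the other mice controls without naming their alleles. The RNA came from whole inner medulla, so fewer cells of a type and less RNA per cell cannot be told apart. It includes cells that do not express aquaporin-2, and which cells kept Dicer was not measured here. Directions rest on reading the table's columns CK01 to CK03 as DicerAQP2Cre+ replicates 1 to 3, an inference from their names.

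Dicer cuts precursor hairpins into a duplex, from which 1 arm is usually kept as the guide and the other, the passenger, is mostly lost. miR-125 is the vertebrate relative of lin-4, the founding miRNA of Caenorhabditis elegans, and together with let-7 it represses Lin28 in differentiating cells. The miR-99/100 family is known for repressing Mtor and the Igf1 receptor. Both families are encoded together with let-7 genes, and a cluster can be transcribed as 1 primary transcript. In GRCm38, Mir99b, Mirlet7e and Mir125a lie in this order on chromosome 17 in an intron of Spaca6, with first mature bases 172 and 623 bases downstream of that of Mir99b. On chromosome 16 the order in an intron of Mir99ahg is Mir99a, Mirlet7c-1 at 732 bases and Mir125b-2 at 47339 bases. On chromosome 9 it is Mir100, Mirlet7a-2 at 5340 bases and Mir125b-1 at 50503 bases, in introns of the noncoding gene 3110039I08Rik.

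The 5p arms are shown first because they are the guides and define the families, with bases 2 to 8, the seed that pairs with targets, in capitals (RefSeq, GRCm38.p6, 5′ to 3′). miR-351-5p, from the X chromosome, is added as the entry of the table outside the families that shares the miR-125 seed.
miR-125a-5p: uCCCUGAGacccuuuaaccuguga
miR-125b-5p: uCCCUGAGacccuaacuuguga
miR-351-5p: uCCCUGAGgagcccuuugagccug
miR-99a-5p: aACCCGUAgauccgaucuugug
miR-99b-5p: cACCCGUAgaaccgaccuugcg
miR-100-5p: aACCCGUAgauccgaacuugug
The first 13 bases of miR-125a-5p and miR-125b-5p are identical. miR-100-5p differs from miR-99a-5p by A16U alone (miR-100-5p's base first, positions from 1 at the 5′ end), whereas miR-99b-5p differs from each of them at 4 bases. A read with 1 error could therefore be assigned to the wrong one of miR-99a-5p and miR-100-5p. miR-125b-5p is the same in Mir125b-1 and Mir125b-2, and the 3p arms tell these hairpins apart.

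The 3p arms are shown because they tell the hairpins apart and enter the arm ratios, again with bases 2 to 8 in capitals.
miR-125a-3p: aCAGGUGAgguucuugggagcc
miR-125b-1-3p: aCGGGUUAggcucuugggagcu
miR-125b-2-3p: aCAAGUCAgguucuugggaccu
miR-99a-3p: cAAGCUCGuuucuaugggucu
miR-99b-3p: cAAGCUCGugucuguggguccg
miR-99a-3p and miR-99b-3p share a seed, while the 3p arms of miR-125b-1 and miR-125b-2 differ at 5 of 22 bases. In the Mir125a precursor of 68 bases the capitals mark the 5p arm and, after the loop, the 3p arm.
Mir125a: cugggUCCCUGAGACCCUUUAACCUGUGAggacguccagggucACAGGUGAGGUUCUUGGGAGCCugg

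Libraries held between 2934851 and 7614853 recovered reads, the fewest in DicerAQP2Cre+ replicate 2. DicerAQP2Cre+ replicate 3 lay at a root mean square distance of 0.84 log2 units from control replicate 3, over the tested entries. It lay further from replicates 1 and 2 of its own group (0.91 and 0.93). DicerAQP2Cre+ replicate 1 was likewise closer to controls 2 and 3 (0.90 and 0.89) than to DicerAQP2Cre+ replicate 3. Calls are also given without DicerAQP2Cre+ replicate 3 where they change. Leaving out a library that resembles the controls can widen differences. Without it limma called 22.8% of all tested entries, against 8.46% with all libraries, so calls gained this way are no added support. Of the collecting duct epithelial markers (miR-200a-3p, miR-200b-3p, miR-200c-3p, miR-141-3p and miR-429-3p) 5 of 5 were called lower, against 4.99% of all tested entries. Their sums were 7133 to 10776 normalized reads in DicerAQP2Cre+ libraries and 16704 to 17708 in controls. Of 5 stromal markers 5 had fold changes above 0, 4 were higher with no overlap and 2 were called higher, against 3.47% of all tested entries. Their sums were 27621 to 39941 in DicerAQP2Cre+ libraries and 23291 to 24539 in controls. Without DicerAQP2Cre+ replicate 3, 4 of 5 passed. Sums for 2 endothelial markers were 830 to 1245 in DicerAQP2Cre+ libraries and 961 to 1229 in controls, for 4 leukocyte markers 15922 to 38104 and 12167 to 35214, and for 3 erythroid markers 66039 to 98714 and 84624 to 147220. In each of these lists 0 were called. Almost all of the leukocyte sum was miR-150-5p (15893 in DicerAQP2Cre+ replicate 1), and miR-142a-3p, a defining leukocyte marker, was at 0 in 5 libraries. Almost all of the erythroid sum was the joined entry of miR-486a-5p and miR-486b-5p (78643 in DicerAQP2Cre+ replicate 1, where miR-451a had 25.9). These 2 sums therefore do not give a level shared by several markers. Without DicerAQP2Cre+ replicate 3, 1 leukocyte marker passed. Of 2 tested cortical tubule markers both had fold changes below 0 and 1 was called lower (miR-194-5p), and both passed without DicerAQP2Cre+ replicate 3. Sums over the cortical tubule list were 627 to 1131 in DicerAQP2Cre+ libraries and 1277 to 1340 in controls. The neuronal miR-124-3p had 0 reads in all DicerAQP2Cre+ libraries and in controls 2 and 3, while miR-9-5p fell, and striated muscle miR-133a-3p stood at 24.4 to 47.0 in DicerAQP2Cre+ libraries and 32.9 to 48.7 in controls. The part of these shifts in the results below was not tested.

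Of the 10 arms, 0 were called in either direction by limma at an adjusted p under 0.05, against 8.46% of all 461 tested entries (4.99% lower and 3.47% higher in DicerAQP2Cre+ samples). At an unadjusted p under 0.05, 1 arm passed, miR-99b-5p, against 28% of all entries. edgeR called 0 of the 10, against 9.11% of all entries, and DESeq2 0, against 13%. Log2 fold changes ran from -0.74 to 0.33 with a median of -0.13, beside a median of -0.01 for all tested entries. A fold change below 0 was found for 5 of the 10, against 50.5% of all entries. By arm, 4 of the 5 guides and 1 of the 5 3p arms were below 0, with miR-99a-3p all but at 0. The signs depend on the scaling: with libraries set to equal totals, 4 of the 5 guides and 4 of the 5 3p arms were below 0. Scaling moves all arms of a library together, so the arm ratios within a library, given below, do not depend on it. The genotypes did not overlap for 2 arms lower in DicerAQP2Cre+ samples (miR-125b-5p and miR-125b-2-3p) and for 2 higher (miR-99b-3p and miR-100-5p), that is 4 of 10. Of all tested entries 33.6% did not overlap, 18% being lower and 15.6% higher. Neither count exceeds what the table as a whole gives by more than 1 arm.

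**Figure D1:**
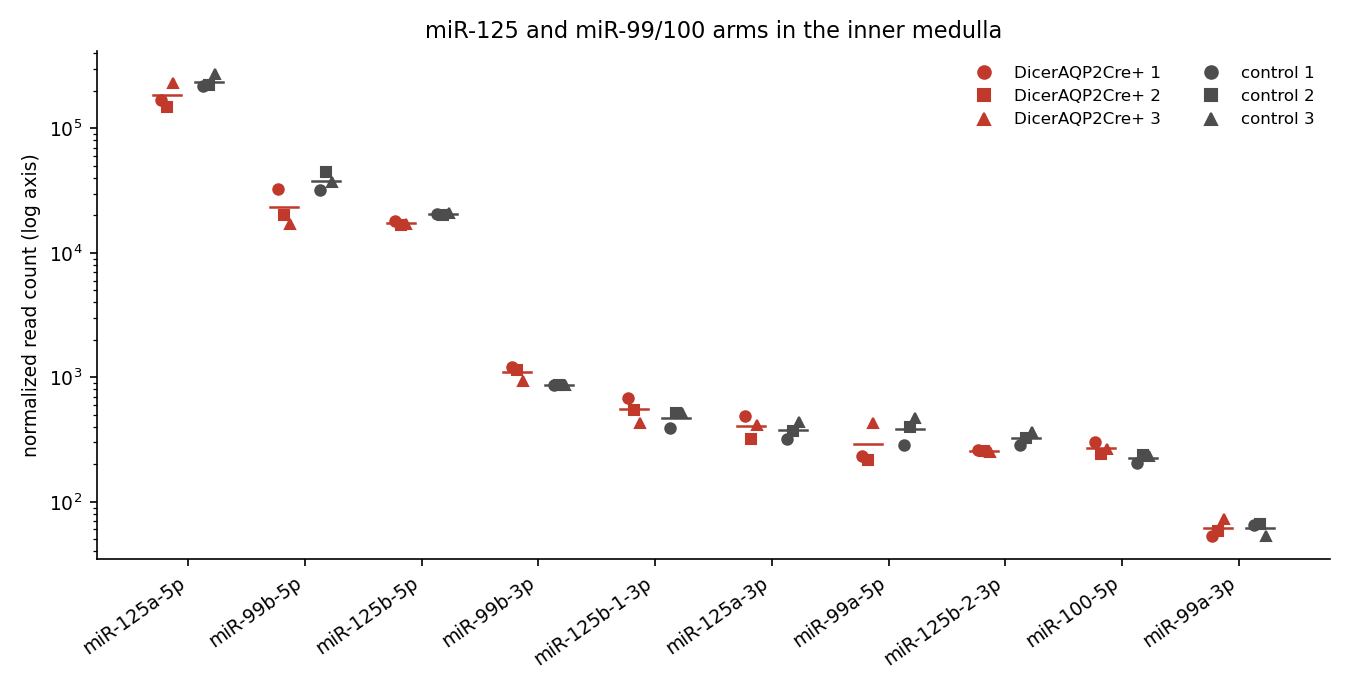
Normalized read count (log axis) of each arm in each library, DicerAQP2Cre+ left (red) and control right (grey) of each pair, with the replicate shown by the symbol and the mean as a bar (n = 3 each). miR-125a-5p stood far above the other arms, and the groups overlap for most arms.

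The levels covered a wide range. miR-125a-5p was the second most abundant entry of the table by mean, and took 3.21 ± 0.730% of reads in DicerAQP2Cre+ libraries and 4.82 ± 0.831% in controls (SD, n = 3 each). miR-99b-5p and miR-125b-5p followed, at 6.89-fold less and a further 1.62-fold less on the mean over all libraries, and overlapped in DicerAQP2Cre+ libraries but not in controls. A gap of 19.3-fold separated miR-125b-5p from miR-99b-3p. Of the lower arms, neighbours from miR-125b-1-3p down to miR-125b-2-3p overlapped in both genotypes, miR-125b-2-3p and miR-100-5p in DicerAQP2Cre+ libraries, and miR-99a-3p was lowest, 4.04-fold under miR-100-5p. The reference sequences of the arms are 21 to 24 bases long, and no length correction was made. Ligation and amplification can favour some sequences, which limits comparisons between miRNAs. The guide to passenger split was uneven: the 5 3p arms summed to 2377 ± 301 normalized reads in DicerAQP2Cre+ libraries and 2104 ± 157 in controls, beside 201472 ± 44011 and 258325 ± 32083 for the miR-125 5p arms alone. miR-100-3p, which is no member, had at most 1 read in any library.

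Both guides of the miR-125 family had lower means in DicerAQP2Cre+ samples, and neither passed the test. mmu-miR-125a-5p had 169027, 149829 and 233820 normalized reads in DicerAQP2Cre+ replicates 1 to 3, against 217379, 221535 and 274411 in controls 1 to 3. Replicates 1 and 2 lay below every control, whereas DicerAQP2Cre+ replicate 3 lay above controls 1 and 2. The log2 fold change was -0.39 ± 0.21 (SE; 95% interval -0.85 to 0.08) and did not pass (limma adjusted p = 0.258). Without DicerAQP2Cre+ replicate 3 it was -0.57 and passed (limma adjusted p = 0.0417), in a fit that called 22.8% of all entries. Over the alternatives that kept it as its own entry, edgeR and DESeq2 included, its adjusted p ran from 0.0417 to 0.567.

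mmu-miR-125b-5p, known as a repressor of Trp53 and Bak1, had 17896, 16747 and 17095 normalized reads in DicerAQP2Cre+ libraries against 20452, 20310 and 20888 in controls. The groups did not overlap, and both were tight, with coefficients of variation of 3.42% in DicerAQP2Cre+ libraries and 1.46% in controls. The log2 fold change was -0.25 ± 0.17 (interval -0.62 to 0.12, limma adjusted p = 0.347), where limma draws the spread of each entry towards that of entries of like abundance. Of its passengers, miR-125b-2-3p from chromosome 16 had 261, 257 and 252 normalized reads in DicerAQP2Cre+ libraries against 288, 324 and 366 in controls, with no overlap (log2 fold change -0.34 ± 0.21, limma adjusted p = 0.334). miR-125b-1-3p from chromosome 9 had 684, 549 and 427 against 393, 518 and 513, with overlap (0.21 ± 0.25, limma adjusted p = 0.643). miR-125a-3p had 490, 319 and 415 in DicerAQP2Cre+ libraries and 321, 371 and 439 in controls, again with overlap (0.10 ± 0.24, limma adjusted p = 0.806). With libraries set to equal totals, a scaling that moved the median of all entries to -0.21, miR-125a-3p and miR-125b-1-3p came out at -0.11 and -0.01.

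miR-351-5p, the other carrier of the miR-125 seed, had a fold change of the opposite sign. It had 10118, 8148 and 8546 normalized reads in DicerAQP2Cre+ libraries against 5583, 6257 and 7105 in controls, with no overlap. Its log2 fold change of 0.50 ± 0.19 (interval 0.08 to 0.92) did not pass (limma adjusted p = 0.124), but did without DicerAQP2Cre+ replicate 3 (0.53, limma adjusted p = 0.0492, in a range of 0.0492 to 0.377 over the alternatives). The fit without that library called 22.8% of all entries. The summed level of these 3 entries with the seed ran from 174724 to 259461 in DicerAQP2Cre+ libraries, against 243413 to 302404 in controls. The difference between miR-351-5p and the miR-125 guides was not tested.

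The miR-10 family is related to miR-99/100 by sequence with a displaced seed, as miR-10a-5p shows beside the miR-99/100 guides printed above (bases 2 to 8 in capitals).
miR-10a-5p: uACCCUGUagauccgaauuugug
It had 98586, 105203 and 244512 normalized reads in DicerAQP2Cre+ libraries against 247761, 189294 and 207772 in controls (log2 fold change -0.65, limma adjusted p = 0.211). Without DicerAQP2Cre+ replicate 3, in the fit that called 22.8% of all entries, it was -1.07 and passed (limma adjusted p = 0.00127, in a range of 0.00127 to 0.499 over the alternatives). miR-10b-5p had 24120, 31646 and 85289 in DicerAQP2Cre+ libraries against 73415, 47377 and 62459 in controls (-0.58, limma adjusted p = 0.363). Without that library it was -1.12 and passed as well (limma adjusted p = 0.00181, in a range of 0.00181 to 0.758). In both, DicerAQP2Cre+ replicate 3 lay within or above the controls and the other replicates below all of them, the arrangement also seen for miR-125a-5p and miR-99a-5p.

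In the miR-99/100 family miR-99b-5p carried almost all guide reads and, with all 6 libraries, had the largest fold change of the 10 arms. mmu-miR-99b-5p had 32444, 20319 and 17140 normalized reads in DicerAQP2Cre+ replicates 1 to 3 against 31995, 44473 and 37326 in controls. Replicates 2 and 3 lay below every control, while DicerAQP2Cre+ replicate 1 lay between controls 1 and 3. The log2 fold change was -0.74 ± 0.25 (interval -1.30 to -0.19), that is 1.68-fold lower, with a limma adjusted p of 0.0963. It passed without DicerAQP2Cre+ replicate 1 (-1.01, limma adjusted p = 0.0316) and with libraries set to equal totals (-0.96, limma adjusted p = 0.0388), and its adjusted p ran from 0.0316 to 0.302 over the alternatives. Without DicerAQP2Cre+ replicate 3 it was -0.55 (limma adjusted p = 0.0768), smaller than the values of miR-99a-5p and miR-125a-5p in that fit. Its share of reads was 0.408 ± 0.148% in DicerAQP2Cre+ libraries and 0.770 ± 0.150% in controls. Its passenger miR-99b-3p had 1207, 1154 and 931 in DicerAQP2Cre+ libraries against 864, 862 and 867 in controls, so that every DicerAQP2Cre+ value was above every control (log2 fold change 0.33 ± 0.20, limma adjusted p = 0.307).

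mmu-miR-99a-5p, less abundant, had 235, 216 and 432 normalized reads in DicerAQP2Cre+ libraries against 287, 396 and 470 in controls. As for miR-125a-5p, DicerAQP2Cre+ replicate 3 lay within the controls and the other replicates below them. Its log2 fold change was -0.43 ± 0.31 (limma adjusted p = 0.386), and without DicerAQP2Cre+ replicate 3 it was -0.74 and passed (limma adjusted p = 0.0390, in a range of 0.0390 to 0.726 over the alternatives). That fit called 22.8% of all entries. miR-100-5p had 303, 241 and 265 in DicerAQP2Cre+ libraries against 207, 239 and 232 in controls (0.25 ± 0.22, limma adjusted p = 0.498). The genotypes did not overlap, but by a narrow gap, between 241 in DicerAQP2Cre+ replicate 2, from 123 reads, and 239 in control 2, from 304 reads. When the near-identical miR-99a-5p and miR-100-5p were summed, the log2 fold change of the sum was -0.12 (limma adjusted p = 0.782). As its own entry miR-100-5p stayed above 0 with 1 library left out (0.16 to 0.33). miR-99a-3p had 72, 30 and 71 recovered reads in DicerAQP2Cre+ libraries and 84, 84 and 55 in controls. Its normalized means were 61.5 ± 9.92 and 61.3 ± 7.02 (limma adjusted p = 0.999), with a 95% interval of the log2 fold change from -0.58 to 0.58.

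**Figure D2:**
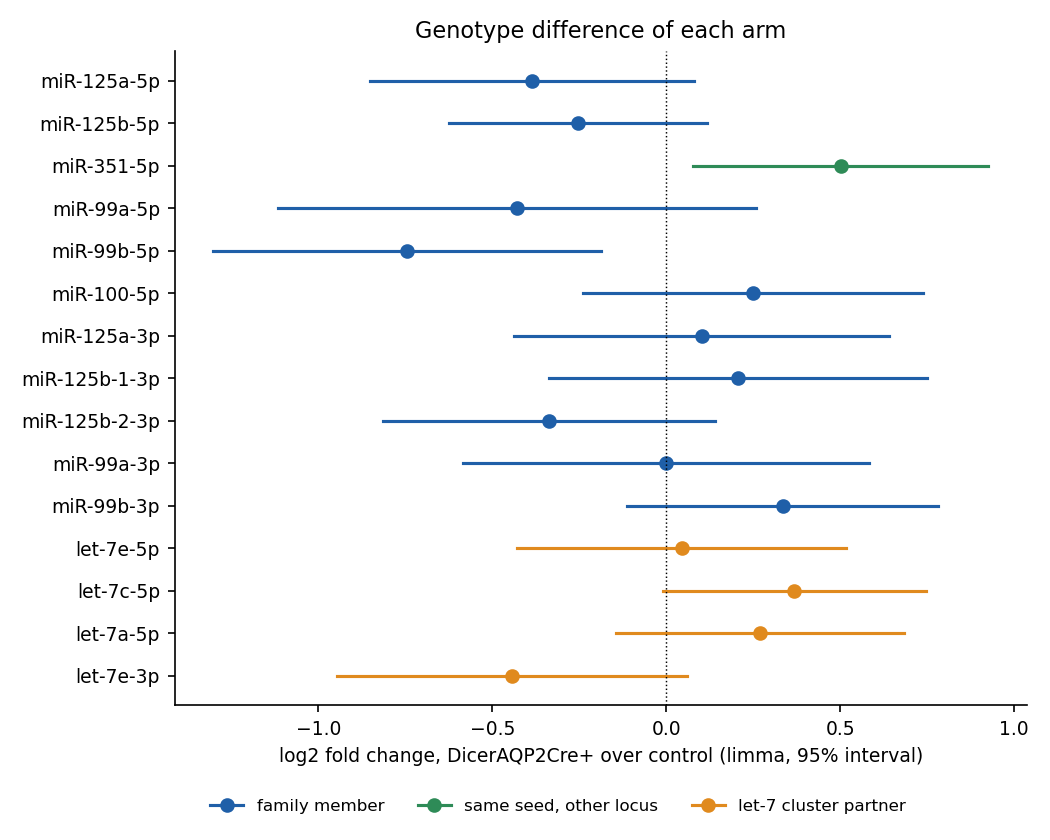
Log2 fold change of each arm (DicerAQP2Cre+ over control, limma, points) with its 95% interval (lines), for the family members, miR-351-5p and 4 let-7 partners. The intervals of miR-99b-5p (-1.30 to -0.19) and miR-351-5p (0.08 to 0.92) leave out 0 before adjustment.

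The let-7 family, whose guides restrain growth and keep cells differentiated, supplies the middle gene of each cluster. Of 9 let-7 entries listed, 7 were tested and 0 were called, with 6 fold changes above 0, 1 below and a median of 0.27. Of the 6, let-7b-5p, let-7b-3p and the joined entry of let-7a-1-3p and let-7c-2-3p come from none of the 3 clusters. With libraries set to equal totals, 4 of the 7 were above 0. The largest was that of this joined entry, at 1.40 ± 0.48 (limma adjusted p = 0.0963). It rested on 16, 5 and 15 recovered reads in DicerAQP2Cre+ libraries and 7, 7 and 2 in controls. With a pseudocount of 5 it was 0.91, and with 0.5 it was 1.52. On chromosome 17, let-7e-5p, the middle gene, had 22546, 18898 and 31548 normalized reads in DicerAQP2Cre+ libraries against 23806, 23106 and 22286 in controls. The log2 fold change was 0.04 ± 0.21 (limma adjusted p = 0.909), and replicate 3 was again the high library. Its passenger let-7e-3p was lower without overlap, at 292, 229 and 296 in DicerAQP2Cre+ libraries and 425, 352 and 334 in controls (-0.44 ± 0.23, limma adjusted p = 0.234). The ratio of miR-125a-5p to let-7e-5p was 7.50, 7.93 and 7.41 in DicerAQP2Cre+ libraries against 9.13, 9.59 and 12.3 in controls. The DicerAQP2Cre+ ratios lay close together, below every control, and were 1.35-fold lower on the log scale (exact two-sided permutation p = 0.1, adjusted over 13 ratios p = 0.325).

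For miR-99b-5p, the first gene of the cluster, the ratios to its neighbours overlapped between genotypes. Its ratio to let-7e-5p was 1.44, 1.08 and 0.543 in DicerAQP2Cre+ libraries against 1.34, 1.92 and 1.67 in controls (exact permutation p = 0.2, adjusted p = 0.325). The ratio of miR-125a-5p to miR-99b-5p was 5.21, 7.37 and 13.6 in DicerAQP2Cre+ libraries and 6.79, 4.98 and 7.35 in controls, with overlap (exact permutation p = 0.4, adjusted p = 0.578). The value of 13.6 belonged to replicate 3, where miR-125a-5p was highest and miR-99b-5p lowest of the DicerAQP2Cre+ libraries. Without that library the log2 difference of this ratio was -0.02, against 0.36 with it.

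On chromosomes 16 and 9 the let-7 reads cannot be tied to the cluster, because let-7c-5p and let-7a-5p are also made elsewhere. let-7c-5p had 196190, 225406 and 212269 normalized reads in DicerAQP2Cre+ libraries against 151483, 180549 and 159580 in controls, higher with no overlap (0.37 ± 0.17, limma adjusted p = 0.192). miR-99a-5p relative to let-7c-5p was 1.74-fold lower in DicerAQP2Cre+ libraries, with overlap (exact permutation p = 0.2, adjusted p = 0.325). let-7c-1-3p, which marks the chromosome 16 hairpin, had 3, 0 and 3 reads in DicerAQP2Cre+ libraries and 5, 2 and 2 in controls, so a difference was not detectable. let-7a-5p had 44039, 48904 and 59437 in DicerAQP2Cre+ libraries and 42495, 45236 and 38052 in controls, with overlap (0.27 ± 0.19, limma adjusted p = 0.369). The ratio of miR-100-5p to let-7a-5p differed by -0.02 on the log2 scale (exact permutation p = 1.0). Between the near-identical copies on chromosomes 16 and 9, miR-99a-5p relative to miR-100-5p was 0.773, 0.894 and 1.63 in DicerAQP2Cre+ libraries against 1.39, 1.66 and 2.03 in controls (exact permutation p = 0.2, adjusted p = 0.325).

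**Figure D3:**
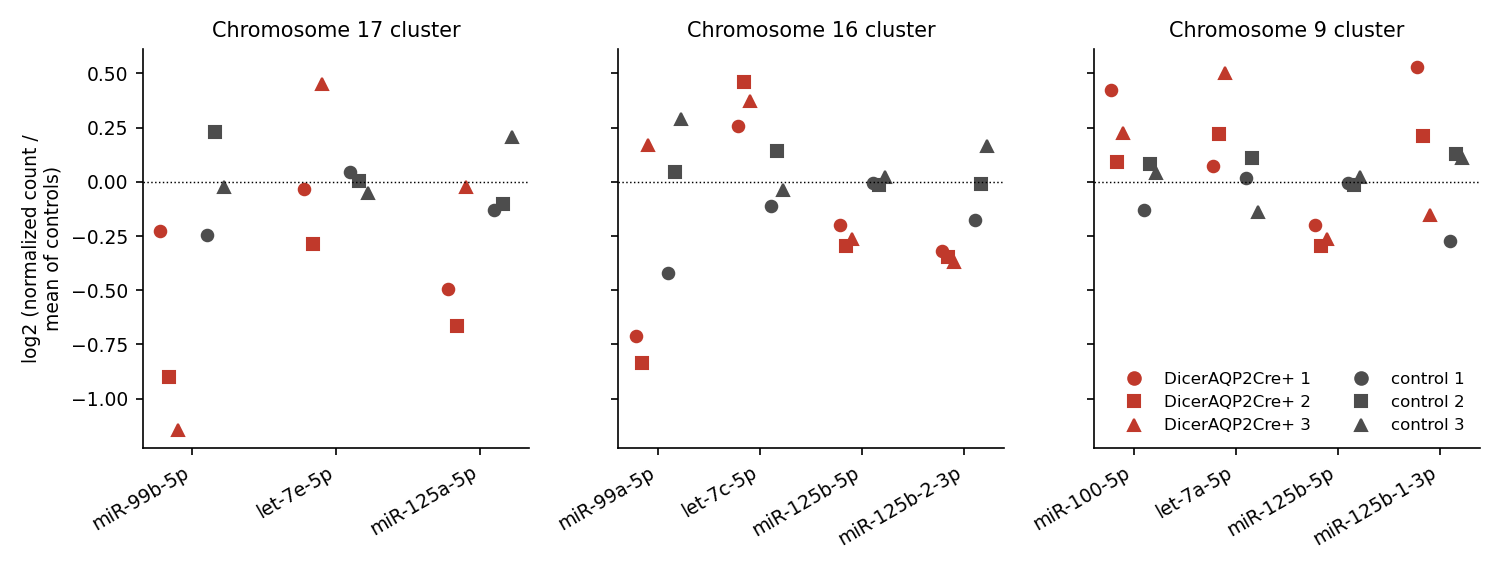
Log2 of each library's normalized count over the mean of the controls, for the entries of each cluster, with DicerAQP2Cre+ left (red) and control right (grey) and the replicate shown by the symbol; miR-125b-5p stands in both the chromosome 16 and the chromosome 9 panel because both hairpins make it. DicerAQP2Cre+ replicate 3 is the highest of its group for let-7e-5p, miR-125a-5p and miR-99a-5p and the lowest for miR-99b-5p.

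The balance of the arms was compared within each library, where the scaling between libraries drops out. The 5p to 3p ratio of miR-99b was 26.9, 17.6 and 18.4 in DicerAQP2Cre+ libraries against 37.0, 51.6 and 43.0 in controls, with no overlap. The mean ratio was 21.0 ± 5.14 in DicerAQP2Cre+ libraries and 43.9 ± 7.34 in controls (SD, n = 3 each), a 2.11-fold lower ratio on the log scale (exact permutation p = 0.1, the smallest that 3 against 3 allows, adjusted p = 0.325). That of miR-125a was 345, 469 and 564 in DicerAQP2Cre+ libraries against 676, 597 and 625 in controls, also with no overlap (1.40-fold lower, exact permutation p = 0.1, adjusted p = 0.325). For miR-125b-5p over miR-125b-1-3p the mean ratio was 32.2 ± 7.10 in DicerAQP2Cre+ libraries and 44.0 ± 7.01 in controls, and for miR-99a it was 4.68 ± 1.17 and 6.43 ± 2.23, both with overlap (exact permutation p = 0.2 each, adjusted p = 0.325). The exception was miR-125b-5p over miR-125b-2-3p, at 67.2 ± 1.72 in DicerAQP2Cre+ libraries and 63.6 ± 6.95 in controls (exact permutation p = 0.5, adjusted p = 0.65). The ratios to miR-125b-1-3p and miR-125b-2-3p share the miR-125b-5p reads of both hairpins.

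**Figure D4:**
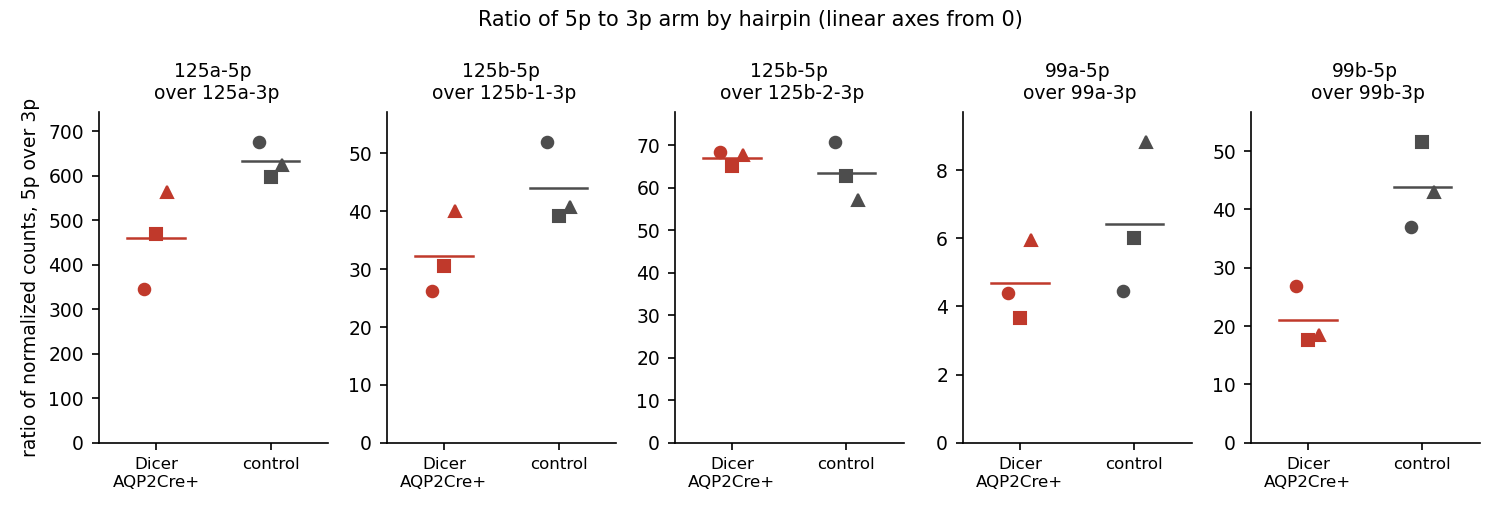
Ratio of the 5p to the 3p arm in each library for 5 arm pairs (linear axes from 0, points are libraries, bars are means, DicerAQP2Cre+ left and control right). The miR-99b ratios are 17.6 to 26.9 in DicerAQP2Cre+ libraries and 37.0 to 51.6 in controls.

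Over the whole table, 112 hairpins had both arms tested under matching names. Of these, 12.5% had a 5p to 3p ratio that was lower in DicerAQP2Cre+ libraries with no overlap, 9.82% one that was higher with no overlap, and 44.6% a log2 difference below 0. The median difference of all was 0.07. Among the 3 family hairpins in that set, miR-99b (-1.08 ± 0.40) had the difference ranked 7 from the lowest, miR-125a (-0.49 ± 0.39) ranked 27 and miR-99a (-0.43 ± 0.42) ranked 29. In a limma fit over the 112 ratios, added after the data were seen, 0 hairpins were called and 18 had an unadjusted p under 0.05. The adjusted p was 0.186 for miR-99b (unadjusted 0.0172), 0.581 for miR-125a and 0.594 for miR-99a.

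**Figure D5:**
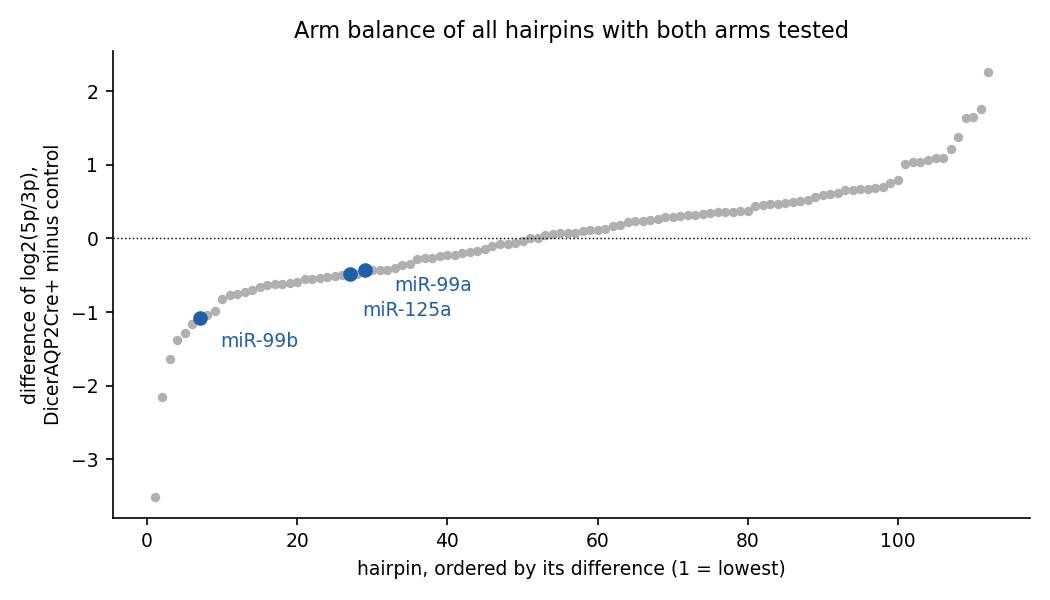
Difference of log2(5p/3p) between genotypes (DicerAQP2Cre+ minus control) for each of 112 hairpins, ordered from lowest to highest, with the family hairpins in blue. miR-99b lies near the low end at -1.08, and miR-125a and miR-99a lie at -0.49 and -0.43.

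By likeness of profile, measured as the root mean square distance of centred log2 values over 6 libraries among the tested entries, no guide had another family member among its 2 nearest. miR-125a-5p was nearest to miR-186-5p (0.08 log2 units) and miR-210-5p (0.13), and miR-125b-5p to miR-423-3p (0.08) and miR-298-5p (0.09). miR-99a-5p was nearest to miR-26b-5p (0.12) and miR-22-3p (0.15). Of these, miR-22-3p had 21478, 21952 and 54355 normalized reads in DicerAQP2Cre+ libraries and 30823, 45182 and 54321 in controls. miR-99b-5p was nearest to miR-330-3p (0.17) and to miR-92a-3p (0.17), and miR-100-5p to miR-342-5p (0.10) and miR-222-3p (0.11). Between 6 and 30 entries lay within 0.2 log2 units of each guide.

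As sums, the miR-125 guides stood at 186923, 166576 and 250915 normalized reads in DicerAQP2Cre+ libraries against 237831, 241846 and 295299 in controls. The miR-99/100 guides stood at 32982, 20776 and 17837 in DicerAQP2Cre+ libraries and 32489, 45108 and 38029 in controls. Both sums overlapped between genotypes. The sum of all 10 arms did not, by a narrow gap, at 189690 to 270849 in DicerAQP2Cre+ libraries and 272252 to 335566 in controls. In share of reads, the 10 arms together held 3.97 ± 0.679% in DicerAQP2Cre+ libraries and 6.06 ± 0.918% in controls. miR-181a-5p, the most abundant entry, held 63.0 ± 4.36% and 48.0 ± 4.75%. Shares within a library depend on each other, so a larger share of 1 entry lowers those of others.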

How the data were processed

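Small RNA from kidney inner medulla was sequenced from 3 DicerAQP2Cre+ and 3 control mice, with RNeasy Micro extraction and TruSeq small-RNA libraries per the labels' protocols. The authors deposited normalized signal, in which each library's counts appear scaled by a single factor, as the values themselves show: 100% were whole multiples of a column's smallest value above 0, within 0.01 read. FastQC 0.11.3, DESeq2 and mm9 are listed, without a role, in the submitters' processing notes. For the aligner, the counter and the miRNA annotation, names were not given in the sources used here. A library with 0 reads of an entry allows up to 3 reads (2.22 to 5.88 normalized reads), counting error only.

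The main test was a two-sided limma fit (version 3.58.1, R 4.3.3) of log2(value + 1), with trended variance and no replicate block, over the 461 entries with a mean of at least 5, with Benjamini-Hochberg adjustment. Fold changes on this scale understate the change of low entries. edgeR 4.0.16 and DESeq2 1.42.0 ran on the recovered reads. The 13 ratios within hairpins, clusters and families were each put to an exact permutation test (two-sided), which cannot go below 0.1 with 3 against 3, and adjusted over the 13. Scripts were checked on simulated data. Alternatives were pseudocounts, filters, scalings, no trend, a replicate block, each library left out and summed near-identical entries.

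Named entries were the members, the listed let-7 entries, entries of the table sharing a guide's seed, miR-10a-5p and miR-10b-5p, miR-181a-5p, and the 2 nearest profiles of each guide. The members and lists were chosen with earlier results of these data known. The series design describes separate mice, so p-values measure the spread between animals and libraries together. Sequences and gene neighbours are from RefSeq and GENCODE on GRCm38, with no coordinates taken over to mm9.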

Additional observations from a re-analysis of the deposited data

How the results depend on the processing

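Against 0 arms called lower, 1 was called with libraries set to equal totals (miR-99b-5p), 1 at an adjusted p under 0.1 (miR-99b-5p) and 0 to 2 with 1 library left out; 0 were called higher in every setting run. Over all entries 23 were called lower and 16 higher. With equal totals 48 were lower. Fitting no trend gave 11 lower and 7 higher, an adjusted p under 0.1 gave 41 and 30, and DESeq2 called 29 higher. With 1 library left out 0 to 62 were lower and 0 to 43 higher, the 0 without control 2 or control 3 and the highest without DicerAQP2Cre+ replicate 3. Of the 13 ratios, 3 did not overlap between genotypes, and 3 to 8 did not with 1 library left out. Groups separate more readily with fewer libraries. For arm ratios such as those of miR-99b and miR-125a, 12.5% of 112 hairpins were lower with no overlap and 9.82% higher. No such share was computed for the ratios between cluster partners or family members, or with a library left out. With equal totals miR-125a-3p, miR-125b-1-3p, miR-99a-3p, let-7e-5p and let-7b-5p turned to -0.11, -0.0059, -0.21, -0.17 and -0.055. miR-99a-3p was -0.015 with TMM scaling, and the sum of miR-100-5p and miR-99a-5p was -0.12. Equal totals moved the median of all tested entries from -0.01 to -0.21, and TMM scaling moved it to -0.03. The cause of the difference between library totals was not tested. Leaving out 1 library turned signs within these ranges: miR-125a-3p -0.040 to 0.27, miR-99a-3p -0.12 to 0.10, let-7e-5p -0.16 to 0.21, let-7b-3p -0.11 to 0.76, and, as log2 differences of ratios, miR-100-5p over let-7a-5p -0.20 to 0.11, miR-125a-5p over miR-99b-5p -0.021 to 0.67 and miR-99b-5p over miR-99a-5p -0.71 to 0.19.

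Same-numbered libraries of the genotypes share a number, and the labels do not say whether they share anything else. Their deviations from the group means correlated at -0.06, 0.01 and 0.06. Differently numbered libraries gave -0.09 to 0.10, so these values cannot decide whether there was a pairing. With a replicate block, 0 arms were called. Depth limits miR-99a-3p most, with 30 reads in DicerAQP2Cre+ replicate 2, the shallowest library.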
